A study of Mus musculus with 24 samples.

Results

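The ID proteins Id1, Id2, Id3 and Id4 and the HES and HEY proteins Hes1, Hes5, Hes6, Hey1 and Hey2 are transcriptional regulators of the helix-loop-helix family, and their RNA was followed in cultured mouse cortical neurons. Every probe set that the platform annotation assigned to one of these genes alone was taken. This gave 15 probe sets for 9 genes, out of 45101 probe sets and 18194 genes on the array. Id2 and Id4 had 3 probe sets each, Hes5 and Hes6 had 2 each, and the other 5 genes had 1.

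The cultures were primary cortical neurons of E18 mice, cultured for 1 week before a treatment that lasted 2 h or 12 h. At each time 4 treatments were compared. These were BDNF at 50 ng/ml together with IBET858 at 1 µM, BDNF alone, IBET858 alone, and DMSO as control, with 3 arrays each and 24 in all. BDNF is a neurotrophin whose receptor is the kinase TrkB, and IBET858 inhibits the BET proteins, readers of acetylated histones. The labels give no mouse strain, sex or genotype, and name no cell line or transgene. They do not say whether the 3 arrays of a group came from separate cultures, so the p-values measure only the spread between these arrays, which may be technical. In cultures that hold several cell types, fewer cells of a type and less RNA per cell cannot be told apart.

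ID proteins lack a DNA-binding region. They pair with the E proteins, the common partners of the neurogenic basic helix-loop-helix activators, and keep them off DNA, and many ID genes are targets of BMP signalling through SMAD proteins. HES and HEY proteins bind DNA and repress their targets with corepressors of the Groucho/TLE family or histone deacetylases. Several of them are classical targets of Notch and its DNA-binding partner RBPJ, and in the developing cortex they hold progenitors back from neuronal differentiation. Hes6 is the exception, since it is known to oppose Hes1 and to favour differentiation.

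Values below are on the deposited log2 scale, on which each probe set had a median of 0 over the 24 arrays, and a gene's value is the mean of its probe sets. Levels can thus be compared between arrays but not between genes, and presence of a gene or a marker cannot be judged. A gene was called higher or lower where limma's moderated test, adjusted over all 18194 genes by the Benjamini-Hochberg method, gave a value under 0.05. Errors are standard errors unless stated otherwise.

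At 2 h Id4 and Id1 rose most with IBET858 alone, and Hey1 and Id2 rose most with BDNF alone. IBET858 alone raised 4 of the 9 genes at 2 h, Id1, Id4, Hes6 and Hey1, and lowered 0, where 14.9% of all genes were called (5.64% higher and 9.27% lower). BDNF alone raised 5 of 9 at 2 h, all 4 ID genes and Hey1, and lowered Hes5 and Hey2, where 27.9% of all genes were called (9.79% higher and 18.1% lower). With both treatments at 2 h, 6 of 9 rose and 2 fell against DMSO, where 41.8% of all genes were called (18.6% higher and 23.2% lower). The median change of the 9 genes at 2 h was 0.56 with both treatments, 0.42 with BDNF and 0.20 with IBET858, and the median over all genes was 0.033, -0.0043 and 0.023 in the same comparisons. The comparisons with DMSO share the DMSO arrays of their time.

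At 12 h the shares were closer to those of all genes. IBET858 raised 4 of 9 and lowered Id2, where 48.7% of all genes were called (22.9% higher and 25.8% lower). BDNF raised Id2 and lowered Hes5 and Hes6, 3 of 9 where 41% of all genes were called (16.9% higher and 24.2% lower). With both treatments 4 rose and Hes6 fell against DMSO, 5 of 9 where 53% of all genes were called (22.7% higher and 30.3% lower). In that comparison the Hes6 fall was lost without replicate 1 of both treatments (adjusted p = 0.0655), and the Hey2 rise without replicate 1 of DMSO or replicate 2 of both treatments (adjusted p = 0.0577 and 0.0622). By probe set the Hes6 fall was called for 1452021_a_at (-0.35 ± 0.089) and not for 1436050_x_at (-0.15 ± 0.084, adjusted p over probe sets = 0.145). The name of 1436050_x_at marks probes that may read other transcripts. A share this near that of all genes is no result about these genes, and the 12 h changes are given gene by gene below.

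**Figure D1:**
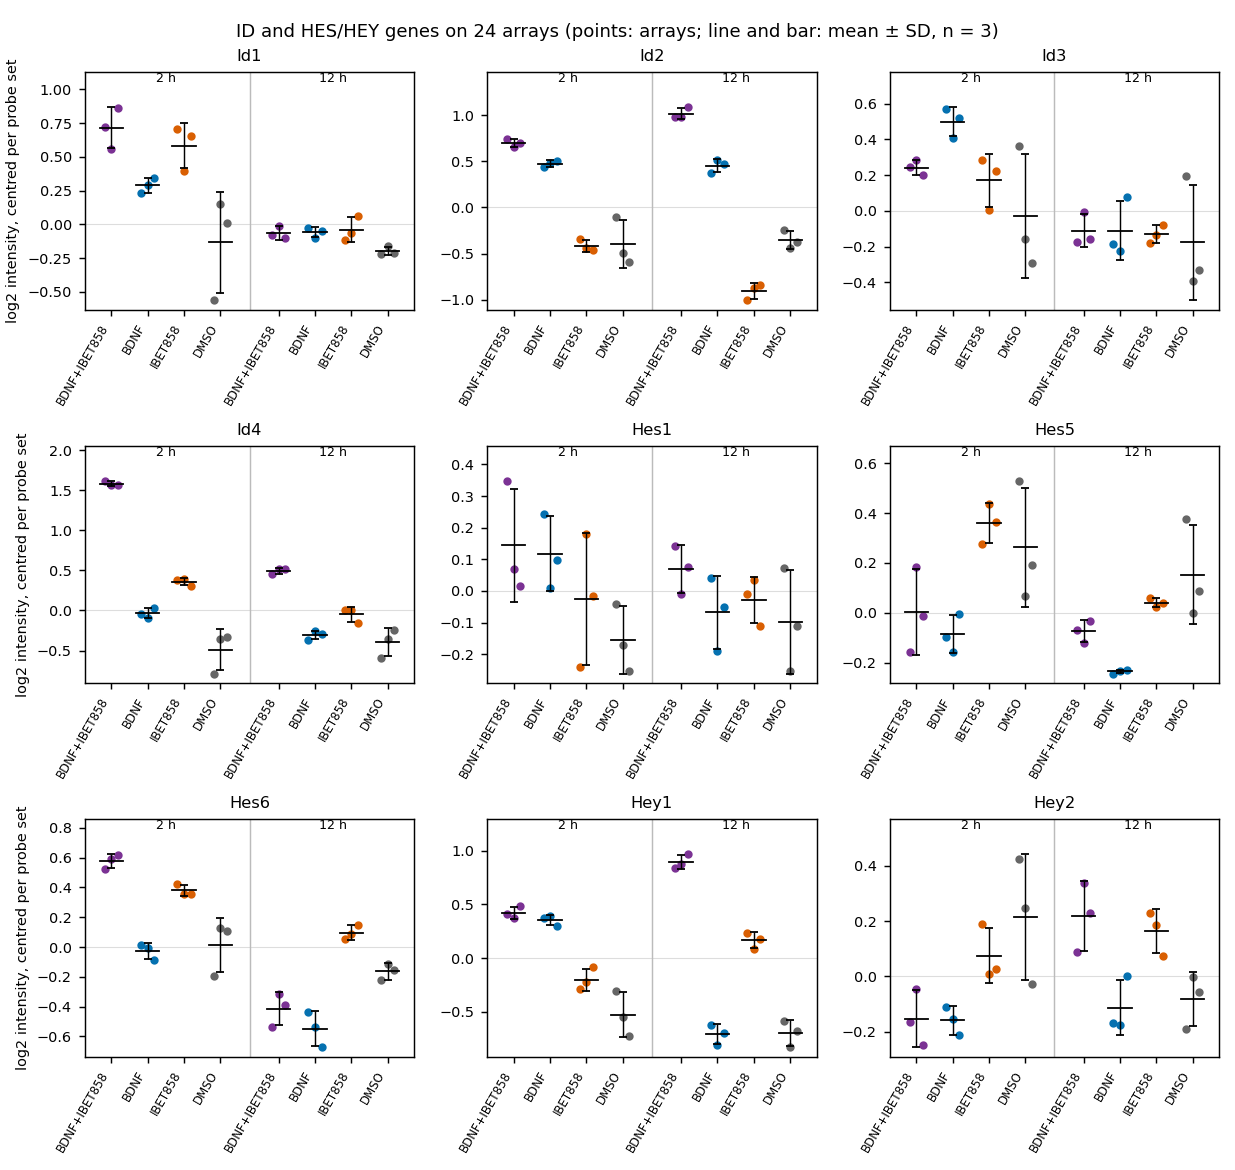
Values of the 9 genes on each of the 24 arrays, 1 panel per gene; the vertical axis is the centred log2 value and the horizontal axis the 4 treatments at 2 h and at 12 h, with the group mean as a bar. The Id4 arrays with both treatments at 2 h sit between 1.56 and 1.62, and the Hey1 arrays with both treatments at 12 h between 0.84 and 0.97, above every other array of the same gene.

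Id4, an ID protein of astrocytes and neural stem cells, gave the largest change of the 9 genes. At 2 h its values were 1.62, 1.57 and 1.56 with both treatments, -0.040, -0.098 and 0.026 with BDNF, 0.38, 0.39 and 0.31 with IBET858 and -0.79, -0.35 and -0.33 with DMSO. The 4 groups did not overlap, with both treatments highest, then IBET858 alone, BDNF alone and DMSO. Against DMSO, Id4 was 4.21-fold higher with both treatments (2.07 ± 0.094, adjusted p = 1.62e-13), 1.37-fold higher with BDNF (0.45 ± 0.094, adjusted p = 0.000781) and 1.80-fold higher with IBET858 (0.85 ± 0.094, adjusted p = 7.98e-07). The effect of both was larger than the sum of the single effects on the log2 scale, with an interaction of 0.77 ± 0.13 (adjusted p = 0.000540). The interaction is the effect of IBET858 in the presence of BDNF minus its effect alone, and 1 of the 9 genes was called for it at 2 h, where 8.4% of all genes were called (3.11% positive and 5.29% negative). Without DMSO replicate 1 at 2 h the count was 4, with Id3 (-0.65, adjusted p = 0.0216), Hes6 (0.34, adjusted p = 0.0240) and Hey1 (-0.37, adjusted p = 0.0408) added. The share of all genes called without that array is not given, so the larger count is no result about these genes.

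At 12 h the Id4 values lay closer together. They were 0.45, 0.51 and 0.52 with both treatments, -0.37, -0.26 and -0.29 with BDNF, 0.0044, 0.0019 and -0.16 with IBET858 and -0.59, -0.35 and -0.25 with DMSO. The arrays with both treatments were above all others, and BDNF overlapped DMSO. As deposited, Id4 rose with IBET858 (0.35 ± 0.094, adjusted p = 0.00418) and with IBET858 added to BDNF (0.80 ± 0.094, adjusted p = 2.91e-07), but neither rise was kept after cyclic loess between arrays. After this step, an alternative chosen after seeing the data, the same differences were -0.24 (adjusted p = 0.0401) and -0.0045 (adjusted p = 0.976). On centred values it orders genes by their centred value and not by brightness, so it cannot decide which direction is right. The 2 h differences with IBET858 were 0.78 alone and 1.58 on top of BDNF after the same step.

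The 3 Id4 probe sets had the same direction with IBET858 at 2 h. They were not all called for BDNF or the interaction at 2 h, or for IBET858 at 12 h. At 2 h all 3 rose with IBET858, by 1.08 ± 0.10, 0.83 ± 0.098 and 0.64 ± 0.12 for 1423259_at, 1423260_at and 1450928_at. At 12 h the first was higher by 0.60 ± 0.10 and the second by 0.46 ± 0.098, while 1450928_at differed by -0.021 ± 0.12 (adjusted p over probe sets = 0.901). The effect of BDNF alone at 2 h was called for the first and the second and not for 1450928_at (0.19 ± 0.12, adjusted p over probe sets = 0.286). The 2 h interaction was called for 1423260_at (0.81 ± 0.14) and 1450928_at (1.07 ± 0.17) and not for 1423259_at (0.43 ± 0.15, adjusted p over probe sets = 0.0861). The 12 h interaction was called for the same probe sets and again not for 1423259_at (0.37 ± 0.15, adjusted p over probe sets = 0.103).

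Id2, expressed in cortical neurons as well as progenitors, followed BDNF at both times. At 2 h its values were 0.74, 0.65 and 0.70 with both treatments, 0.43, 0.48 and 0.51 with BDNF, -0.35, -0.44 and -0.46 with IBET858 and -0.10, -0.49 and -0.59 with DMSO. All arrays with BDNF were above all arrays without it, and IBET858 alone overlapped DMSO. BDNF raised Id2 1.83-fold (0.87 ± 0.088, adjusted p = 1.13e-07), and the difference of IBET858 from DMSO was -0.020 (95% interval -0.20 to 0.16, adjusted p = 0.912).

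At 12 h the effect of IBET858 on Id2 had opposite signs without and with BDNF. The values were 0.98, 0.98 and 1.09 with both treatments, 0.38, 0.51 and 0.47 with BDNF, -1.002, -0.88 and -0.84 with IBET858 and -0.25, -0.43 and -0.38 with DMSO, and the 4 groups did not overlap. Id2 fell with IBET858 alone (-0.55 ± 0.088, adjusted p = 1.74e-05) and rose with IBET858 on top of BDNF (0.56 ± 0.088, adjusted p = 1.22e-05). The interaction was 1.12 ± 0.12 (adjusted p = 2.21e-06), and both treatments together stood 3.79-fold above IBET858 alone. Both signs held after cyclic loess, at -0.84 alone and 0.24 with BDNF.

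The 3 Id2 probe sets gave BDNF effects of unequal size at 2 h. Probe set 1453596_at read 1.23, 1.28 and 1.21 with BDNF and -0.26, -0.47 and -0.58 with DMSO, a difference of 1.68 ± 0.10 (adjusted p over probe sets = 9.78e-11). The other two rose by 0.51 ± 0.12 (1422537_a_at) and 0.42 ± 0.12 (1435176_a_at). Only these other two, of the 3, rose further when IBET858 was added to BDNF at 2 h, by 0.42 ± 0.12 and 0.36 ± 0.12, against -0.094 ± 0.10 for 1453596_at (adjusted p over probe sets = 0.570). At 12 h the BDNF effects were 0.76 ± 0.10 for 1453596_at, 0.78 ± 0.12 for 1422537_a_at and 0.88 ± 0.12 for 1435176_a_at, and the interaction was called for all 3. The 1453596_at effect at 12 h minus that at 2 h was -0.92 ± 0.15 (adjusted p over probe sets = 8.81e-05). The same difference was 0.28 ± 0.17 and 0.45 ± 0.17 for the other two, neither called. Whether the 3 probe sets read different transcripts was not tested.

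**Figure D2:**
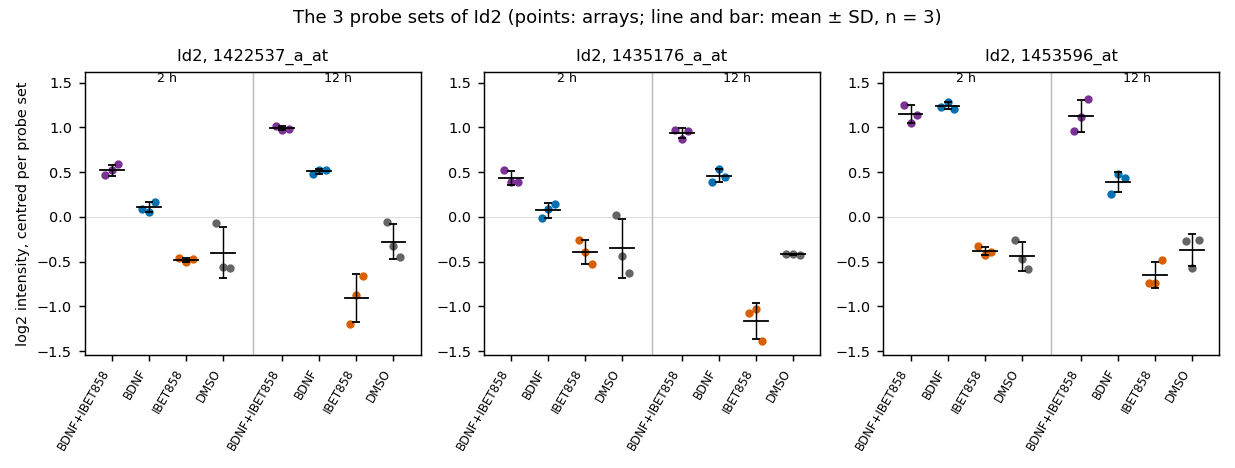
Values of the 3 Id2 probe sets on each array, 1 panel per probe set; the vertical axis is the centred log2 value and the horizontal axis the 4 treatments at 2 h and at 12 h. Probe set 1453596_at lies between 1.21 and 1.28 with BDNF at 2 h, and the other two lie between -0.017 and 0.17 there.

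The RefSeq promoters of Id2 and Id4 (GRCm38.p6) are shown because these genes gave the largest changes among the ID genes. They run from 250 bases before to 50 bases after the start, at chr12:25096043-25096342 on the minus strand and chr13:48260866-48261165 on the plus strand. Capitals mark the CCAAT box, searched as CCAAT on both strands, so that ATTGG is a match on the opposite strand.
Id2: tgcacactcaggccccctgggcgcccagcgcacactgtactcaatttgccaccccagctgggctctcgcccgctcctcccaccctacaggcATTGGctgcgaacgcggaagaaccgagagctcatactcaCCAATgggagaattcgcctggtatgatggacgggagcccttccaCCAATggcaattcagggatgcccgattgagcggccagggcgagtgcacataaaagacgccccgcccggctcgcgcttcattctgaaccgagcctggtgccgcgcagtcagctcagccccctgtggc
Id4: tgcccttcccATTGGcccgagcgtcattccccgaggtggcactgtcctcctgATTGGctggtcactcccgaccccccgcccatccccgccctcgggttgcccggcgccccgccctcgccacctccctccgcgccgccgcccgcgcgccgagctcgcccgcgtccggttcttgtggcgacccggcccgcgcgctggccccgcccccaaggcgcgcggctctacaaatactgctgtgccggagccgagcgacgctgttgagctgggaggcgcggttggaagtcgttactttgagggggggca
Id2 held 3 CCAAT boxes, which began 159, 120 and 76 bases before the start, and Id4 held 2, at 240 and 198. Hes5, Hey2 and 1 of the 2 Hes6 promoters also held 2 each, so the motif is no trait of Id2 and Id4 alone, and Id3 held 0. Of 32851 mouse promoters of the same length, 37.4% held the motif and 11.7% held it at least 2 times. The motifs and the promoters printed were chosen after the values of the genes were seen, and the matches describe these letters only. Promoters of 6 of the 9 genes were matched, and all of them were richer in G and C than the median promoter at 52.7%, with Id2 at 63.3% and Id4 at 73.3%.

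Id1, a BMP target of endothelium and glia among other cells, rose at 2 h with either treatment. Its 2 h values were 0.72, 0.56 and 0.86 with both treatments, 0.23, 0.29 and 0.35 with BDNF, 0.70, 0.40 and 0.65 with IBET858 and -0.56, 0.15 and 0.0093 with DMSO. Every treated array was above every DMSO array, and replicate 1 of DMSO was lowest. Id1 rose with IBET858 (0.72 ± 0.12, adjusted p = 0.000192), with BDNF (0.42 ± 0.12, adjusted p = 0.0118) and with both (0.85 ± 0.12, adjusted p = 7.29e-06). The BDNF call was lost without that DMSO array (0.21, adjusted p = 0.0953). Adding IBET858 to BDNF raised Id1 by 0.43 ± 0.12 (adjusted p = 0.0111), a call that was lost without replicate 3 of both treatments (adjusted p = 0.0664).

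By 12 h no treatment was called for Id1 as deposited. All 12 arrays of that time lay between -0.22 and 0.065, and the DMSO arrays were the 3 lowest. The IBET858 effect on Id1 at 12 h was smaller than at 2 h by a called difference of -0.56 ± 0.17 (adjusted p = 0.0152). Without DMSO replicate 1 at 2 h that difference was -0.35 (adjusted p = 0.0265). The 12 h direction changed with cyclic loess on the centred values, a step that cannot decide which direction is right. The differences from DMSO were 0.16 with IBET858 and 0.13 with both treatments as deposited, and -0.40 and -0.70 after cyclic loess (adjusted p = 0.0113 and 6.31e-05).

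Id3, often expressed together with Id1, was called in a single comparison. At 2 h its values were 0.24, 0.28 and 0.20 with both treatments, 0.57, 0.41 and 0.52 with BDNF, 0.29, 0.0050 and 0.22 with IBET858 and 0.36, -0.16 and -0.29 with DMSO. BDNF arrays were above the other 9, and DMSO replicate 1 was far above the other 2 DMSO arrays. BDNF raised Id3 by 0.53 ± 0.14 (adjusted p = 0.00728), and the call was lost without DMSO replicate 3 (adjusted p = 0.0537). Without the first DMSO array at both times, a choice made after seeing the data, Id3 also rose at 2 h with both treatments (0.47, adjusted p = 0.000359) and with IBET858 (0.40, adjusted p = 0.00421). At 12 h that choice added small rises with both treatments (0.25), with BDNF (0.25) and with IBET858 (0.23).

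**Figure D3:**
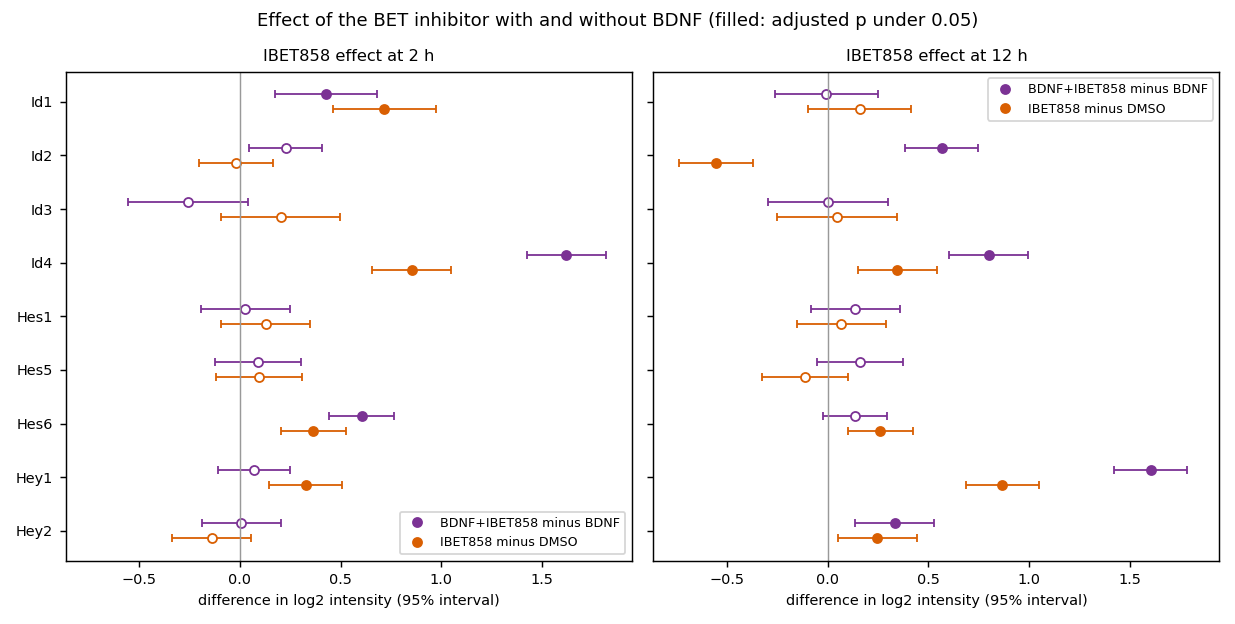
Change of each gene with IBET858, on the log2 scale with 95% intervals, for IBET858 added to BDNF and for IBET858 alone, at 2 h and at 12 h; filled symbols have an adjusted p under 0.05. Id4 stands at 1.62 on top of BDNF at 2 h and Hey1 at 1.60 on top of BDNF at 12 h, while Id2 is at 0.56 with BDNF and -0.55 alone at 12 h. After cyclic loess the Id4 difference at 12 h was a fall with IBET858 alone and was not called on top of BDNF.

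Hes1, the main Notch target of neural progenitors, moved little. Its 12 h values lay between -0.25 and 0.14, and no comparison at that time was called. At 2 h Hes1 read 0.35, 0.069 and 0.014 with both treatments, 0.24, 0.0096 and 0.097 with BDNF, -0.24, 0.18 and -0.018 with IBET858 and -0.040, -0.17 and -0.25 with DMSO. The arrays with BDNF, with or without IBET858, were above the DMSO arrays, and IBET858 alone overlapped every other group. The difference from DMSO was 0.30 ± 0.11 with both treatments (adjusted p = 0.0289) and 0.27 ± 0.11 with BDNF (adjusted p = 0.0630). The first was lost without DMSO replicate 2, DMSO replicate 3 or replicate 1 of both treatments, at adjusted p of 0.0684, 0.105 and 0.168, and the second passed without DMSO replicate 1 (adjusted p = 0.0469).

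Hes5, a Notch target largely restricted to progenitors and glia, fell with BDNF. At 12 h its values were -0.069, -0.12 and -0.033 with both treatments, -0.24, -0.23 and -0.23 with BDNF, 0.060, 0.022 and 0.040 with IBET858 and 0.38, -0.0025 and 0.086 with DMSO. The 3 BDNF arrays were the lowest of all 24 and nearly equal, and DMSO replicate 1 was the highest of that time. The BDNF difference was -0.39 ± 0.10 at 12 h (adjusted p = 0.00375) and -0.35 ± 0.10 at 2 h (adjusted p = 0.0132). The 2 h call was lost without DMSO replicate 1 (-0.21, adjusted p = 0.116) or BDNF replicate 2 (adjusted p = 0.0565). At 12 h the fall was called for 1456010_x_at (-0.49 ± 0.11), whose name marks probes that may read other transcripts. It was not called for 1423146_at (-0.29 ± 0.11, adjusted p over probe sets = 0.0526). At 2 h it was called for 1423146_at (-0.41 ± 0.11) and not for 1456010_x_at (-0.28 ± 0.11, adjusted p over probe sets = 0.0625).

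With IBET858 as background, BDNF also lowered Hes5 at 2 h (-0.36 ± 0.10, adjusted p = 0.0151). This call was lost without replicate 2 of IBET858 or replicate 1 of both treatments (adjusted p = 0.0649 and 0.0943), and at 12 h the same difference was -0.11 (adjusted p = 0.409). Against DMSO, Hes5 fell with both treatments at 2 h (-0.26 ± 0.10, adjusted p = 0.0482). That call was lost without replicate 1 or 3 of either group, at adjusted p between 0.0508 and 0.309, and the difference was -0.12 without DMSO replicate 1. In the comparison of BDNF with IBET858 against IBET858 alone at 2 h, Id2, Id4 and Hey1 rose, so that 4 of 9 genes were called where 21.2% of all genes were (6.44% higher and 14.7% lower). The Hes5 probe sets gave differences there of -0.54 ± 0.11 for 1456010_x_at, whose name marks probes that may read other transcripts, and -0.17 ± 0.11 for 1423146_at (adjusted p over probe sets = 0.353).

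Hes6, the member that opposes Hes1, rose early with IBET858 and fell late with BDNF. At 2 h its values were 0.52, 0.59 and 0.61 with both treatments, 0.012, -0.0080 and -0.089 with BDNF, 0.42, 0.36 and 0.36 with IBET858 and -0.19, 0.13 and 0.11 with DMSO. The arrays with IBET858 were above all without it. IBET858 raised Hes6 by 0.60 ± 0.077 on top of BDNF (adjusted p = 2.18e-06) and by 0.36 ± 0.077 alone (adjusted p = 0.00170).

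At 12 h Hes6 separated by BDNF instead. It read -0.53, -0.32 and -0.39 with both treatments, -0.44, -0.54 and -0.67 with BDNF, 0.053, 0.089 and 0.15 with IBET858 and -0.22, -0.11 and -0.16 with DMSO. The arrays with BDNF were below all without it. BDNF lowered Hes6 in the presence of IBET858 (-0.51 ± 0.077, adjusted p = 1.47e-05) and alone (-0.38 ± 0.077, adjusted p = 0.000312), and IBET858 alone raised it by 0.26 ± 0.077 (adjusted p = 0.00740). In the comparison of BDNF with IBET858 against IBET858 alone at 12 h, Id2, Id4 and Hey1 rose and Hes6 fell, 4 of 9 where 39.3% of all genes were called (16.1% higher and 23.2% lower). The BDNF effect on Hes6 differed between the times by -0.34 ± 0.11 (adjusted p = 0.0242), and this call was lost without replicate 1 of DMSO or BDNF at 2 h, DMSO replicate 2 at 12 h or BDNF replicate 3 at 12 h, at adjusted p between 0.0582 and 0.0809.

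**Figure D4:**
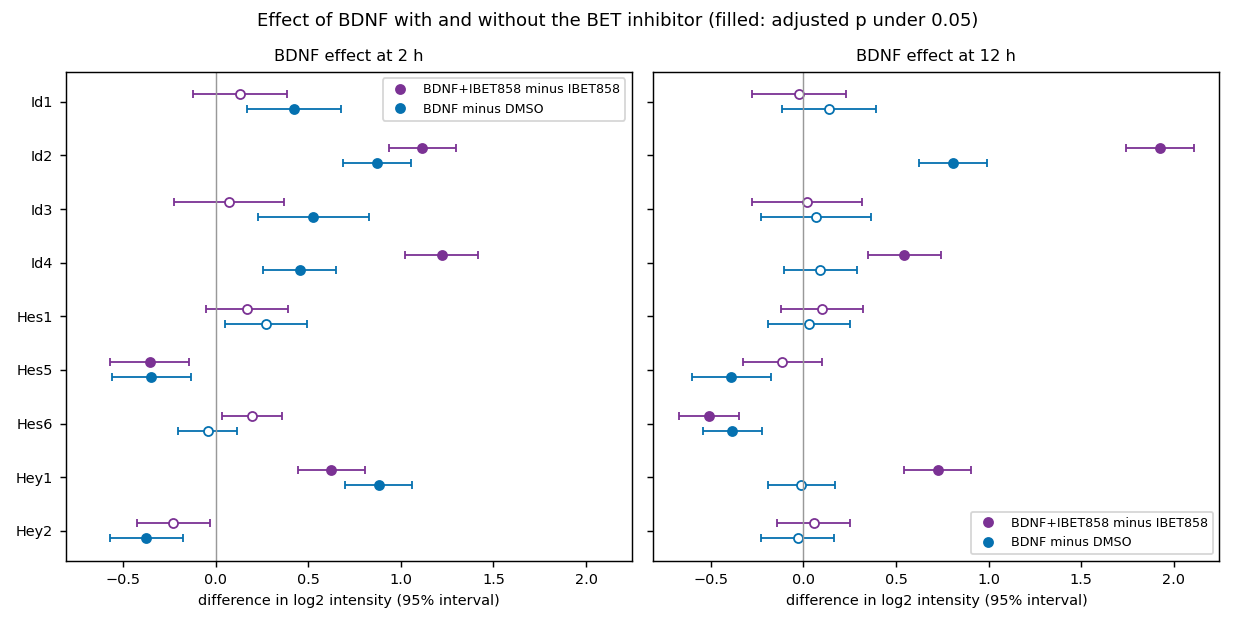
Change of each gene with BDNF, on the log2 scale with 95% intervals, for BDNF in the presence of IBET858 and for BDNF alone, at 2 h and at 12 h; filled symbols have an adjusted p under 0.05. Hey1 is at 0.88 with BDNF alone at 2 h and -0.011 at 12 h, and Id2 is at 1.92 in the presence of IBET858 at 12 h.

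Hey1, a Notch and BMP target that represses with Hes partners, was raised by BDNF alone at 2 h and by IBET858, with or without BDNF, at 12 h. At 2 h its values were 0.41, 0.37 and 0.49 with both treatments, 0.37, 0.39 and 0.30 with BDNF, -0.29, -0.23 and -0.087 with IBET858 and -0.31, -0.55 and -0.73 with DMSO. The arrays with BDNF were above all without it, and both BDNF groups overlapped. BDNF raised Hey1 1.84-fold (0.88 ± 0.087, adjusted p = 7.57e-08). The difference when IBET858 was added to BDNF was 0.071 (95% interval -0.11 to 0.25, adjusted p = 0.597). Against BDNF alone at 2 h, Id1, Id4 and Hes6 were the 3 of 9 genes raised by the addition, where 27.1% of all genes were called (12.2% higher and 14.9% lower). The small rise of Hey1 with IBET858 alone (0.33 ± 0.087, adjusted p = 0.0112) was lost without replicate 3 of DMSO or of IBET858 (adjusted p = 0.0803 and 0.0761).

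At 12 h BDNF alone left Hey1 within the DMSO range. Its values were 0.84, 0.88 and 0.97 with both treatments, -0.62, -0.81 and -0.69 with BDNF, 0.24, 0.087 and 0.18 with IBET858 and -0.58, -0.83 and -0.68 with DMSO. The arrays with both treatments were highest and those with IBET858 next, with no overlap between them or with the rest. Hey1 rose 3.04-fold when IBET858 was added to BDNF (1.60 ± 0.087, adjusted p = 1.86e-12) and 1.82-fold with IBET858 alone (0.87 ± 0.087, adjusted p = 3.03e-08), and both rises held after cyclic loess (1.70 and 0.96).

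The BDNF difference for Hey1 at 12 h was -0.011 (95% interval -0.19 to 0.17) without IBET858 and 0.73 ± 0.087 with it (adjusted p = 6.85e-07), and the interaction was 0.74 ± 0.12 (adjusted p = 0.000238). The 12 h interaction was called for Id2, Id4 and Hey1, 3 of 9 genes where 16.2% of all genes were called (8.94% positive and 7.24% negative). For Id4 it was not called after cyclic loess (0.23, adjusted p = 0.247). The Id4 call was also lost without any 1 of 5 arrays at 12 h (DMSO replicate 2 or 3, IBET858 replicate 3, BDNF replicate 1 or replicate 3 of both treatments), at adjusted p between 0.0515 and 0.071. In the comparison of both treatments against BDNF at 12 h, Id2, Id4, Hey1 and Hey2 were the 4 of 9 genes called, where 46.8% of all genes were called (21.1% higher and 25.6% lower).

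The time course of Hey1 differed between the treatments. Its IBET858 effect was larger at 12 h than at 2 h by 0.54 ± 0.12 (adjusted p = 0.00147), and its effect of BDNF alone was smaller by a difference of -0.89 ± 0.12 (adjusted p = 1.29e-05). The IBET858 effects of Hey1 and Hey2 thus shifted up between the times, while those of Id1, Id2 and Id4 shifted down, 5 of 9 genes where 33.1% of all genes were called (15.8% upward and 17.4% downward). The Hey2 shift (0.39) was 0.23 (adjusted p = 0.209) without the first DMSO array at both times, and its call was lost without any 1 of 7 arrays. For the BDNF effect Hes6 and Hey1 were called, 2 of 9 where 24.8% of all genes were (12.9% upward and 11.9% downward). In DMSO itself 0 of 9 genes differed between 12 h and 2 h by limma, where 7.54% of all genes were called (3.91% higher and 3.63% lower), and 2 had an unadjusted p under 0.05.

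Hey2, a relative of Hey1 known from the cardiovascular system, gave small changes that differed between the times. At 2 h it read -0.17, -0.044 and -0.25 with both treatments, -0.11, -0.15 and -0.21 with BDNF, 0.19, 0.0090 and 0.027 with IBET858 and 0.42, 0.25 and -0.029 with DMSO. The arrays with BDNF were below all without it. It fell with BDNF (-0.37 ± 0.094, adjusted p = 0.00435) and with both treatments (-0.37 ± 0.094, adjusted p = 0.00365).

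At 12 h Hey2 read 0.087, 0.34 and 0.23 with both treatments, -0.17, -0.17 and 0.00080 with BDNF, 0.23, 0.19 and 0.075 with IBET858 and -0.19, -0.00080 and -0.055 with DMSO. The arrays with IBET858 were above all without it. It was higher when IBET858 was added to BDNF (0.33 ± 0.094, adjusted p = 0.00565). The rise with IBET858 alone (0.25 ± 0.094, adjusted p = 0.0360) was not called when each array's median was subtracted (0.23, adjusted p = 0.0615), after cyclic loess, or without any 1 of 4 arrays at 12 h (DMSO replicate 1 or 3, IBET858 replicate 1 or 2), at adjusted p between 0.0574 and 0.146. The change of its IBET858 effect between the times (0.39 ± 0.13, adjusted p = 0.0298) was lost after cyclic loess (adjusted p = 0.103). It was also lost without any 1 of 7 arrays, at adjusted p between 0.0553 and 0.0932. These were DMSO replicate 1 or 2 and IBET858 replicate 2 or 3 at 2 h, and DMSO replicate 1 and IBET858 replicate 1 or 2 at 12 h.

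The RefSeq promoters of Hes5 and Hey2 are shown because both genes fell with BDNF at 2 h and belong to families of Notch targets. They lie at chr4:154960673-154960972 on the plus strand and chr10:30842734-30843033 on the minus strand of GRCm38.p6, from 250 bases before to 50 after the start. Capitals mark the core letters of the RBPJ motif, searched as TGGGAA on both strands, so that TTCCCA is a match on the opposite strand.
Hes5: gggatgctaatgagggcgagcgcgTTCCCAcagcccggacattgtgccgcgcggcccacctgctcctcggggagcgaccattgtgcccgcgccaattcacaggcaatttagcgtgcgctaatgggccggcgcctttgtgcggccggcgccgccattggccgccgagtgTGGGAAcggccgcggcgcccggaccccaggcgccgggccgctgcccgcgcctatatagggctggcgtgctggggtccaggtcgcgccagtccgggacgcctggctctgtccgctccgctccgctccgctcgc
Hey2: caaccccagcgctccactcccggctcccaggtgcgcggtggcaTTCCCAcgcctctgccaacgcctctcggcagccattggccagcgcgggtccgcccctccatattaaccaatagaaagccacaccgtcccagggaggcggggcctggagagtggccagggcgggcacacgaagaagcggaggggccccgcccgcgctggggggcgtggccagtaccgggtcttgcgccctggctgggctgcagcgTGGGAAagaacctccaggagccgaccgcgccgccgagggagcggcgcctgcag
Hes5 held the core 226 and 82 bases before the start and Hey2 at 207 and 3, Id4 held it once, and the promoters of Id2, Id3 and Hes6 held 0. Among the 32851 promoters, 25.6% held the core and 3.79% held it at least 2 times. The choice of motif came after the values were seen, and nothing about binding follows from the letters.

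Genes of the Notch pathway moved in both directions, and the named ones are among the 3 with the largest called change in a comparison. With IBET858 at 2 h, 2 of 27 measured genes rose and 3 fell, or 18.5% called where 14.9% of all genes were. Nrarp, a feedback inhibitor of Notch, rose by 0.77 ± 0.088, and Adam17, a protease that can cleave Notch receptors, rose by 0.72 ± 0.089. Dll1, a Notch ligand, fell with IBET858 (-0.33 ± 0.077) and rose with BDNF (1.30 ± 0.077), where 5 of 27 rose and 3 fell (29.6% called, against 27.9% of all genes). On top of BDNF at 2 h, IBET858 lowered Dll1 (-1.33 ± 0.077) and raised Adam17 (2.83 ± 0.089) and Nrarp (1.27 ± 0.088), among 4 genes that rose and 7 that fell (40.7% called, against 27.1% of all genes). The median change of the list was 0.012, 0.0066 and 0.016 in these 3 comparisons, and that over all genes was 0.023, -0.0043 and 0.046.

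At 12 h the Notch genes were called more often, as all genes were. IBET858 raised 7 of 27 and lowered 7, and BDNF raised 4 and lowered 10, each 51.9% called where 48.7% and 41% of all genes were. The addition of IBET858 to BDNF raised 10 and lowered 7 (63%, against 46.8% of all genes). In that comparison Adam17 rose by 1.57 ± 0.089, the receptor Notch2 by 1.12 ± 0.096 and Rbpj, the DNA-binding partner of Notch, by 0.94 ± 0.069. With BDNF alone at 12 h, Dll3 (-1.31 ± 0.084) and Numbl (-0.84 ± 0.095) fell and Numb (0.41 ± 0.068) rose. The 12 h interaction was called for 9 of 27 genes (33.3%, against 16.2% of all genes), all of them positive, including Notch2 (0.59 ± 0.14), Nrarp (0.52 ± 0.12) and Rbpj (0.50 ± 0.098).

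In the BMP and TGF-beta pathway, IBET858 at 2 h raised 3 of 34 genes and lowered 5 (23.5%, against 14.9% of all genes). Smad6, an inhibitory SMAD, rose by 0.81 ± 0.16, and Bambi, a decoy receptor, by 0.49 ± 0.073, while Smad2 fell (-0.36 ± 0.055). BDNF at 2 h raised 10 and lowered 6 (47.1%, against 27.9% of all genes). The BMP antagonist Grem1 (1.43 ± 0.16) and the inhibitory Smad7 (1.02 ± 0.074) rose most, and Acvr2a fell (-0.57 ± 0.099). IBET858 on top of BDNF at 2 h raised 2 and lowered 10 (35.3%, against 27.1% of all genes), with Grem1 among those lowered (-1.17 ± 0.16). At 12 h, IBET858 on top of BDNF raised 16 and lowered 4 (58.8%, against 46.8% of all genes), including the ligands Bmp6 (1.499 ± 0.12), Tgfb2 (1.22 ± 0.090) and Bmp2 (1.22 ± 0.31). IBET858 alone raised 10 and lowered 8 at 12 h, with Fst, which encodes the activin antagonist follistatin, at -1.83 ± 0.12, and BDNF alone raised 14 and lowered 5. These shares were 52.9% for IBET858 and 55.9% for BDNF, where 48.7% and 41% of all genes were called.

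The list of E proteins and tissue basic helix-loop-helix activators holds partners of ID proteins and genes that HES proteins repress. Not all of these activators are neurogenic. At 2 h IBET858 raised 0 of 18 and lowered 4, BDNF raised 1 and lowered 4, and both together raised 1 and lowered 5 against DMSO. The shares lower were 22.2%, 22.2% and 27.8%, where 9.27%, 18.1% and 23.2% of all genes were lower. The neuronal differentiation factor Neurod1 was lower with BDNF (-0.89 ± 0.11) and with IBET858 (-0.52 ± 0.11), and Neurog2, a proneural factor, was lower by the same comparisons (-0.55 ± 0.10 and -0.38 ± 0.10). At 12 h Neurod6, a factor of pyramidal neurons, rose with BDNF (0.66 ± 0.14) and fell when IBET858 was added to BDNF (-2.38 ± 0.14), and the E protein Tcf4 was lower with both treatments than with DMSO (-0.64 ± 0.043). That comparison raised 0 and lowered 6 of 18 (33.3%), where 53% of all genes were called. IBET858 alone at 12 h raised 4 of 18 and lowered 4 (44.4%, against 48.7% of all genes). On top of BDNF it raised 5 and lowered 5 (55.6%, against 46.8%), and BDNF alone raised 1 and lowered 4 (27.8%, against 41%). Tal1 rose when IBET858 was added to BDNF, by 0.71 ± 0.15 at 2 h and 1.04 ± 0.15 at 12 h. With BDNF alone Tal1 fell at 12 h (-0.94 ± 0.15).

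Of 6 other HES-related genes, Bhlhe40, a repressor of clock genes, was the one called most often. At 2 h it fell with IBET858 alone (-0.58 ± 0.12) and on top of BDNF (-0.80 ± 0.12), and rose with BDNF (0.67 ± 0.12). The 2 h interaction was called for 0 of the 6 genes, where 8.4% of all genes were called. At 12 h it was higher when IBET858 was added to BDNF (0.51 ± 0.12) and lower with IBET858 alone (-0.97 ± 0.12), with an interaction of 1.48 ± 0.17 (adjusted p = 4.12e-06), opposite signs as for Id2. Among 8 corepressors, 2 rose with IBET858 at 2 h and 4 at 12 h, and 0 fell at either time (25% and 50% called, where 14.9% and 48.7% of all genes were). Sirt1, a deacetylase that HES proteins can recruit, rose by 1.12 ± 0.081 at 2 h and 1.37 ± 0.081 at 12 h, and the Groucho proteins Tle4 and Tle1 rose by 0.71 ± 0.068 and 0.48 ± 0.046 at 12 h. With BDNF at 12 h Tle1 rose (0.46 ± 0.046), and Tle2 (-0.90 ± 0.12) and Tle5 (-0.42 ± 0.058) fell, 3 of 8 where 41% of all genes were called.

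Replicate 1 of DMSO stood apart in markers of astrocytes, progenitors and the oligodendrocyte lineage. Markers of astrocytes, of which 12 were measured, were above the mean of the other 2 DMSO arrays by 0.32 at 2 h and 0.35 at 12 h, with 10 of 12 higher at each time. Progenitor markers were higher by 0.29 and 0.21 (7 and 8 of 10), and oligodendrocyte lineage markers by 0.15 and 0.14 (6 and 9 of 9). Neuronal markers differed by 0.011 and -0.066, and the 8 corepressors by -0.20 and -0.069, on the same array. Microglial markers differed there by -0.084 and -0.031 (6 of 10 higher at each time), and vascular markers by 0.058 and -0.033 (8 and 5 of 11 higher). Id3 was higher on that array by 0.59 and 0.56, and Hes5 by 0.40 and 0.34, while Id1 was lower by a difference of -0.64 and Id4 of -0.44 at 2 h. The part of other cells in these values was not tested. Over all genes, the SD around the group mean was 0.072 to 0.117 on 22 arrays, 0.178 on DMSO replicate 1 at 2 h and 0.157 on IBET858 replicate 3 at 12 h.

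**Figure D5:**
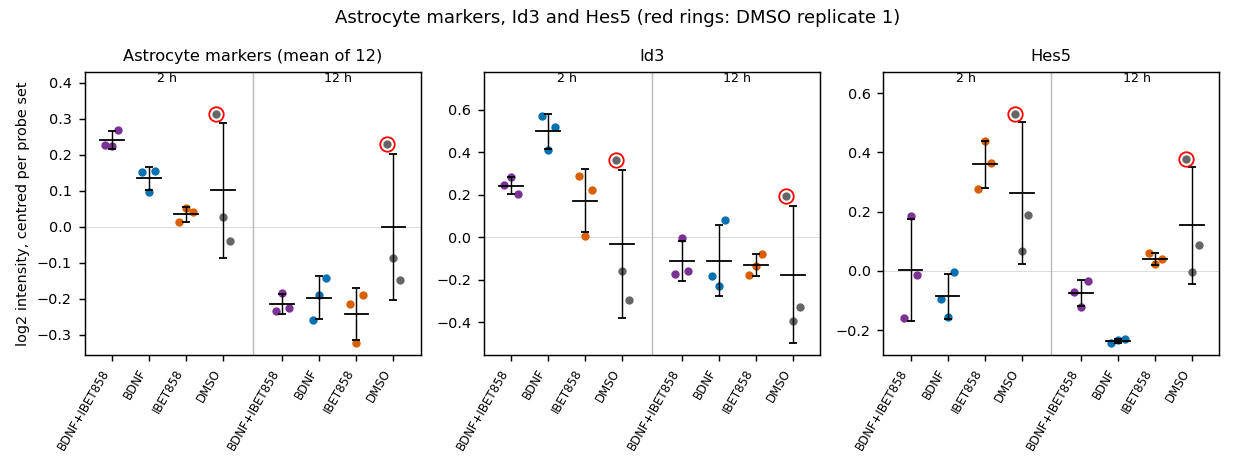
Mean value of 12 astrocyte markers, of Id3 and of Hes5 on each array; the vertical axis is the centred log2 value and the horizontal axis the 4 treatments at 2 h and at 12 h, with rings around replicate 1 of DMSO. The ringed arrays are above the other 2 of their group in each panel.

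Other markers also moved with the treatments. The mean of 11 vascular markers ranged over 0.42 to 0.50 on the arrays with both treatments at 2 h, where Id4 was highest, against -0.038 to 0.026 with BDNF, -0.0082 to 0.068 with IBET858 and -0.068 to 0.0085 with DMSO. Of these 11, 4 were called higher with both treatments than with DMSO and 3 higher than with BDNF, where 18.6% and 12.2% of all genes were higher. The astrocyte mean at 2 h was 0.22 to 0.27 with both treatments, 0.097 to 0.15 with BDNF, 0.012 to 0.051 with IBET858 and -0.039 to 0.31 with DMSO, and 2 of 12 astrocyte markers were called higher with both than with DMSO. The mean of 10 microglial markers at 2 h was 0.24 to 0.45 with both treatments, 0.16 to 0.20 with BDNF, 0.070 to 0.16 with IBET858 and 0.013 to 0.11 with DMSO, and 4 of 10 were called higher with both than with DMSO. The mean of 8 neuronal markers at 2 h was 0.22 to 0.28 with both treatments, -0.012 to 0.033 with BDNF, -0.032 to 0.015 with IBET858 and -0.17 to -0.16 with DMSO. With both treatments against DMSO at 2 h, 2 of 8 neuronal, 3 of 10 progenitor and 1 of 9 oligodendrocyte lineage markers were called higher, and 0 markers of these 6 lists were called lower, where 18.6% of all genes were higher and 23.2% lower.

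In the same comparison at 12 h, 5 of 8 neuronal, 6 of 12 astrocyte, 5 of 9 oligodendrocyte lineage, 3 of 10 microglial, 2 of 11 vascular and 2 of 10 progenitor markers were called lower, where 30.3% of all genes were. Higher at 12 h were 3 neuronal, 3 astrocyte, 4 progenitor and 1 vascular markers. The part of other cells in the Id4 and other results was not tested, and since each probe set is centred, presence or absence of any of these cells cannot be read from the values.

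Poly-A control transcripts, which are added to the RNA before labelling, averaged 0.45 with both treatments, -0.048 with BDNF, 0.66 with IBET858 and -0.20 with DMSO at 12 h over 27 probe sets. These controls were thus higher in the 2 groups with IBET858 at the time at which the Id4 and Id1 differences changed with cyclic loess, and their part in those results was not tested.

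The genes whose values were most like those of each member over the 24 arrays, by Pearson's r among 16259 genes, differed from member to member. Id4 was most like Plk3 (r = 0.988), Taf4b (0.968) and Nufip2 (0.962), and Id2 most like Dusp6 (0.951), Mapre1 (0.943) and Vegfa (0.936). Hes6 was most like Calb1 (0.927), Cabyr (0.923) and Cntnap2 (0.921), and Hey1 most like Zswim4 (0.926), Sox11 (0.917) and Polg (0.916). For the other 5 members the highest r was 0.892 (Maoa, with Id1), 0.840 (Lrrc28, with Hes5), 0.835 (Cetn4, with Id3), 0.812 (Wdr82, with Hey2) and 0.724 (Tmc8, with Hes1). Among the 9 genes themselves, Id1 and Hes6 (0.77) and Id1 and Id4 (0.76) were the most alike. All these values share the same 24 arrays and are descriptions only.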

How the data were processed

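RNA of 24 samples was measured on Affymetrix mouse arrays. The deposited log2 values are the authors' RMA output, per the submitters' processing notes. RMA corrects background, gives all arrays 1 distribution and summarises probe sets; the log base is that of RMA and is not given in the table. In the deposited log2 table each of 45101 probe sets had a median of 0 over the arrays (tolerance 1e-06). Setting arrays to 1 distribution hides a change in total RNA. The platform annotation named 1 gene for 34958 probe sets, several for 932 and none for 9211, and 34754 were matched to RefSeq.

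Probe sets naming 1 gene were averaged per gene, and 18194 genes were fitted with 8 group means in limma 3.58.1 (lmFit, eBayes) under R 4.3.3, with no filter. The contrasts, the alternatives tried (normalization, probe sets, array weights, replicate block, arrays left out) and every list are described above or below. The code was tested on simulated data. All 9 members are named, from each pathway list up to 3 genes with the largest called change per contrast, and per member the genes of highest correlation. The members and lists were chosen with earlier results of these data known. With arrays, their number limits the precision. Sequences are from RefSeq, GRCm38.p6.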

Additional observations from a re-analysis of the deposited data

Results flagged for a closer look

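The effect of IBET858 in the presence of BDNF differed from its effect alone, by a test of the interaction on the log2 scale, for Id4 at 2 h (0.77) and for Id2 (1.12), Id4 (0.45) and Hey1 (0.74) at 12 h. The Id4 difference at 12 h was not called after cyclic loess or without any 1 of 5 arrays. The effect of IBET858 at 12 h minus that at 2 h was called for Id1 (-0.56), Id2 (-0.53), Id4 (-0.51), Hey1 (0.54) and Hey2 (0.39). The Hey2 call was lost without any 1 of 7 arrays, and its difference was 0.23 (adjusted p = 0.209) without the first DMSO array at both times. The Id1 difference was -0.35 without DMSO replicate 1 at 2 h. The effect of BDNF at 12 h minus that at 2 h was called for Hes6 (-0.34), a call lost without any 1 of 4 arrays, and Hey1 (-0.89). Groups of 3 arrays are too small for a test of single outlying arrays.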

How the results depend on the processing

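The number of members called stayed within 1.5 times of the count given in the report except as follows. The 2 h interaction, called for 1 member, was called for 4 with array weights, for 4 without the 2 arrays that stood apart (DMSO replicate 1 at 2 h and IBET858 replicate 3 at 12 h) and for 4 without the first DMSO array at both times. The BDNF effect at 12 h minus at 2 h, called for 2, was called for 4 with probe sets fitted singly, for 5 with array weights and for 4 without the first DMSO array at both times. The change in DMSO between the times, called for 0, was called for 3, 2 and 1 with array weights, without the 2 arrays apart and without the first DMSO array. Leaving out 1 array at a time gave 1 to 4 calls for the 2 h interaction, 1 to 4 for the BDNF effect between times and 0 to 1 for DMSO. The 4 for the 2 h interaction came without DMSO replicate 1 at 2 h, the 4 for BDNF without DMSO replicate 3 at 2 h, and the single calls for BDNF without BDNF replicate 1 at 2 h, DMSO replicate 2 at 12 h or BDNF replicate 3 at 12 h. Shares of all genes called under these settings are not given, so the changed counts are no result about these genes.

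Cyclic loess, chosen after seeing the data, reversed the sign of 4 differences at 12 h that were called before or after it. These were Id1 with IBET858 (-0.40) and with both treatments (-0.70) against DMSO, and Id4 with IBET858 against DMSO (-0.24) and with both against BDNF (-0.0045). The last was then not called, so that rise was lost and did not become a fall. Cyclic loess also ended the call of Id4 with both treatments against DMSO at 12 h (0.014, adjusted p = 0.924). Of 58 member calls, 51 stayed called in the same direction. On centred values this step orders genes by their centred value and not by brightness, and which normalization is nearer the truth was not tested. It moved the share of higher calls among all genes called with both treatments against IBET858 at 12 h to 53.6%, from 40.9% as deposited. The shift differed between comparisons. For IBET858 against DMSO the share was 47.4%, from 47%, at 12 h and 31.3%, from 37.8%, at 2 h.

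The replicate block lost the Hes5 fall with both treatments at 2 h (adjusted p = 0.0567) and added Id4 to the BDNF effect between times (adjusted p = 0.0457), and it changed no other member call. Same-numbered arrays correlated between -0.2 and 0.509, with 10 of 84 pairs above 0.1. Different-numbered arrays correlated between -0.437 and 0.339, with 17 of 168 pairs above 0.1. The pair at 0.509 was replicate 1 of DMSO at 2 h and at 12 h. Of 24 arrays, 11 correlated best with their own number, so the numbers were not taken to pair the arrays. Without 1 array, 62 of 1026 differences changed sign, 0 of them called on either side, and 39 calls were lost and 15 gained. Sign changes with no call on either side were not counted as reversals.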
